A study of Mus musculus with 4 samples.

Results

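The presynaptic active zone was examined through 10 genes of its protein scaffold and release machinery, *Bsn*, *Pclo*, *Rims1*, *Rims2*, *Rimbp2*, *Erc2*, *Unc13a*, *Unc13b*, *Ppfia2* and *Ppfia3*. They were chosen by name for the known role of their proteins, with earlier results of these data already known. They were found by symbol among the 23420 genes counted. All 10 passed the filter on low counts, which kept 16232 genes. RNA-seq was performed on mouse prefrontal cortex (PFC) for 2 control samples and 2 *Ash1L* shRNA samples, to find out how knockdown of *Ash1L*, which encodes a histone methyltransferase, alters gene expression. All mice were wild-type C57BL6/J of both sexes, and AAV9 was injected into the medial PFC.

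The *Ash1L* shRNA was expressed from a U6 promoter in a GFP-tagged vector. This promoter does not restrict expression to a cell type, but which cell types were infected was not measured in these data. Total lysates of tissue punches with GFP fluorescence were sequenced. The labels give the control virus as GFP-AAV9 and the other as shRNA_ASH1L-AAV9, whereas the methods describe the control as scrambled shRNA. The methods state injection at 5 weeks of age and pools of 3 mice per sample. The series description instead gives an age of 6 to 8 weeks and names 3 shRNA and 2 control mice. The p-values of single genes below set the difference between groups against a spread estimated from these samples and across genes. Because the sources differ on pooling, what that spread says about single mice is not known.

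The active zone is the patch of presynaptic membrane where synaptic vesicles dock, become ready for fusion and release transmitter. Bassoon and Piccolo are giant scaffold proteins that span it. RIM proteins, RIM-binding proteins and ELKS proteins hold calcium channels and vesicles close to each other, Munc13 proteins prime vesicles for fusion, and liprin-α proteins act in assembling the site. Cortical neurons of both excitatory and inhibitory type carry active zones.

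Counts per sample summed to 14251190 and 35764874 in the controls and to 27479339 and 20106708 in the *Ash1L* shRNA samples, and each of the 10 genes had at least 1486 counts in every sample. Levels are given as TMM-normalized counts per 1000000 counts (CPM). *Ash1l* was at 245 and 290 CPM in the controls and at 216 and 138 CPM in the *Ash1L* shRNA samples. Both *Ash1L* shRNA samples lay below both controls, at -0.31 and -0.96 log2 from the control mean. The log2 fold change was -0.60 (SE 0.22, n = 2 per group, adjusted p = 0.275 by the quasi-likelihood test of edgeR, Benjamini-Hochberg adjusted). The call of *Ash1l* was lost without control 1 (log2 fold change -0.71), without control 2 (-0.48), without *Ash1L* shRNA 2 (-0.31), and with an offset for exonic length (-0.53). It was kept without *Ash1L* shRNA 1 (-0.97).

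*Bsn*, *Ppfia2* and *Rims2* were called lower in the *Ash1L* shRNA samples, and no active zone gene of the 10 was called higher. A gene was called when its unadjusted p was under 0.05 and it differed at least 1.2-fold, as the study's methods define it. By this rule 3 of the 10 were called lower, beside 8.28% of all tested genes (1344 of 16232), and 0 were called higher, beside 8.61%. Both *Ash1L* shRNA samples lay below both controls for 7 of the 10 genes, beside 26.8% of all tested genes. The log2 fold change was negative for 8 of the 10, beside 50.3% of all tested genes, and its median was -0.20 with a range from -0.81 to 0.20, beside a median of -0.0027 over all tested genes. The number called lower was 1 without control 2, beside 1.86% of all tested genes, and 4 without *Ash1L* shRNA 1, beside 16.5%.

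After Benjamini-Hochberg adjustment over all tested genes, 0 of the 10 passed 0.05 in edgeR's quasi-likelihood test, with adjusted p from 0.250 to 0.858, and 1 gene passed among all those tested (0.00616%). At an unadjusted p under 0.05, 3 of the 10 passed, beside 2746 of the 16232 genes tested. With DESeq2, 1 of the 10 passed an adjusted p of 0.05, *Bsn* (adjusted p = 0.00326, within a range from 0.00326 to 0.870 over all settings run), beside 2.52% of the 16686 genes with an adjusted p. Without *Ash1L* shRNA 1, 2 of the 10 passed it in the edgeR test, *Bsn* and *Ppfia2*, beside 15.2% of all tested genes. In bulk tissue, fewer cells of a type and less RNA per cell cannot be told apart.

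The counts of the 10 genes together came to 3189 and 3129 CPM in the controls and to 2613 and 2590 CPM in the *Ash1L* shRNA samples. The sums of the groups did not overlap, and the mean of the *Ash1L* shRNA samples was 0.823 of the control mean. With *Bsn* left out of the sum, after its values were seen, the sums were 2536 and 2550 CPM against 2209 and 2294 CPM, a ratio of 0.885. The plot of the 10 genes by sample gives the values of each gene.

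**Figure D1:**
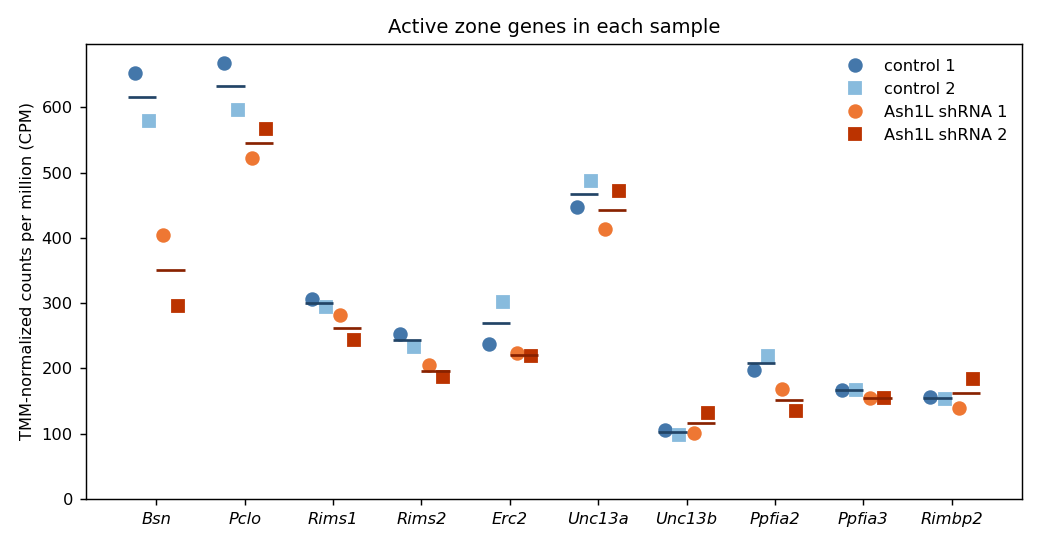
TMM-normalized CPM (vertical axis, linear from 0) of the 10 active zone genes in each of the 4 samples, with a horizontal bar at the mean of each group of 2. *Bsn* had the widest gap between groups, from 579 CPM in the lower control to 404 CPM in the higher *Ash1L* shRNA sample, while the groups overlapped for *Unc13a*, *Unc13b* and *Rimbp2*.

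Of the giant scaffold genes *Bsn* fell and *Pclo* was not called. *Bsn* (Bassoon, ENSMUSG00000032589, chr9:108096022-108190384 on the minus strand, GRCm38/mm10) was at 653 and 579 CPM in the controls and at 404 and 296 CPM in the *Ash1L* shRNA samples. Both *Ash1L* shRNA samples lay far below both controls, and *Ash1L* shRNA 2 was the lowest. The mean fell by 43.1%, from 616 ± 52.1 to 350 ± 76.4 CPM (SD, n = 2 each), with a log2 fold change of -0.81 (SE 0.17, adjusted p = 0.250 by the quasi-likelihood test of edgeR, Benjamini-Hochberg adjusted). *Bsn* was called in each of the 15 other fits run, with a log2 fold change from -1.06 to -0.61.

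*Pclo* (Piccolo, ENSMUSG00000061601, chr5:14514918-14863459 on the plus strand), its closest relative, was at 669 and 596 CPM in the controls and at 523 and 567 CPM in the *Ash1L* shRNA samples. The groups did not overlap, but the distance between them was small, and *Pclo* was not called (log2 fold change -0.21, SE 0.12, and -0.12 without control 1). In raw counts of the same sample, which need no scaling between libraries, the ratio of *Bsn* to *Pclo* was 0.977 and 0.972 in the controls and 0.773 and 0.522 in the *Ash1L* shRNA samples. The controls were nearly alike and the *Ash1L* shRNA samples were both lower, by 0.62 on the log2 scale. An exact permutation test of this ratio gave a two-sided p of 0.333, the smallest that 2 samples against 2 allow (0.333 after adjustment over 5 ratios). The log2 difference of the ratio was -0.33 without *Ash1L* shRNA 2 and -0.90 without *Ash1L* shRNA 1.

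The promoter windows of *Bsn* and *Pclo*, and of *Ppfia2* and *Ppfia3* described below, are shown because in each of these pairs one gene was called and its relative was not. They come from RefSeq (GRCm38.p6), cover 250 bases before to 50 bases after the start, and are written 5′ to 3′ on the strand of the gene. Capitals mark matches on either strand to the GC box GGGCGG, the TATA box sequence TATAAA, the box named after its letters CCAAT, the cAMP response element TGACGTCA, its shorter part TGACG, the E box letters CACGTG or part of the NRF1 motif, GCGCATGC. The RefSeq start lay 218 bases from the nearest GENCODE start for *Ppfia3*, 29 for *Ppfia2*, 1 for *Bsn* and 0 for *Pclo*.
Bsn, chr9:108190334-108190633, minus strand: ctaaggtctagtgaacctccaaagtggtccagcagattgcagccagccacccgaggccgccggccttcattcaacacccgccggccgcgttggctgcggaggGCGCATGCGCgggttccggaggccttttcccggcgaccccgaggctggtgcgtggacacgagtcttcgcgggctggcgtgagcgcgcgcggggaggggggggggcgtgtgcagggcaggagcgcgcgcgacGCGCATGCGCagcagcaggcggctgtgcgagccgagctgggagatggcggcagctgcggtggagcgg
Pclo, chr5:14514668-14514967, plus strand: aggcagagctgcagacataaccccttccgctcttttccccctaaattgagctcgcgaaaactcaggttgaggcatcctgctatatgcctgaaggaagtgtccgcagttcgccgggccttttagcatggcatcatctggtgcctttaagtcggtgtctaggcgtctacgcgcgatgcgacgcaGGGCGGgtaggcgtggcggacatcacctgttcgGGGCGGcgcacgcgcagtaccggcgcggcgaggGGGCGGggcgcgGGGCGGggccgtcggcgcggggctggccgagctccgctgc
Ppfia2, chr10:106470060-106470359, plus strand: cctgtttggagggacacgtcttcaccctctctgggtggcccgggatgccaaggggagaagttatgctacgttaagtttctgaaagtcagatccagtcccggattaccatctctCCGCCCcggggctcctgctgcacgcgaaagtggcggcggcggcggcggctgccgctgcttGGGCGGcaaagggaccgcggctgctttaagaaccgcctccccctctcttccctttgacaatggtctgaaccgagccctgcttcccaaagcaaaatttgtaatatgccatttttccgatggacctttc
Ppfia3, chr7:45366970-45367269, minus strand: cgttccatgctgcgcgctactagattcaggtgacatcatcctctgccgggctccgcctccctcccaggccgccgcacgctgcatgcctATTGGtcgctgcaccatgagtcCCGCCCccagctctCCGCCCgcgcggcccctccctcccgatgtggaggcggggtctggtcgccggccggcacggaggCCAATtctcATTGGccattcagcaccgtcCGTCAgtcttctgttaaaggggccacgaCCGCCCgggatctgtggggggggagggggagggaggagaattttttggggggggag

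A window was found for 9 of the 10 genes, all but *Rims2*. The *Bsn* window held 38 CpG dinucleotides and 72.3% G and C, and the *Pclo* window 35 and 66.0%. The medians were 7 CpG and 52.7% over 32851 RefSeq windows, which were not restricted to the genes tested here. All 9 windows had a GC content above that median, from 58.3% in *Ppfia2* to 73.7% in *Erc2*, and *Rimbp2* held only 7 CpG. The *Bsn* window had GCGCATGC in 2 stretches, from position -148 to -139 and from -17 to -8 before the start, each read on both strands, and this motif was in 1 of the 9 windows and in 2.71% of all windows. GGGCGG was in 7 of the 9, all but *Bsn* and *Rimbp2*, and in 35.7% of all windows. CCAAT was in 3 of 9 (37.4% of all), TGACG in 2 (20.8%), CACGTG in 1 (7.15%), TATAAA in 0 (13.6%) and TGACGTCA in 0 (1.79%). These matches describe letters in a window and no binding was measured here.

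Of the RIM genes *Rims2* was called lower and *Rims1* was not called, with log2 fold changes of -0.31 and -0.19 (SE 0.12 each). *Rims2* (ENSMUSG00000037386, chr15:39198261-39684372 on the plus strand), which encodes a RIM scaffold that binds vesicle Rab3 and calcium channels, was at 253 and 233 CPM in the controls and at 205 and 187 CPM in the *Ash1L* shRNA samples. The groups did not overlap and both *Ash1L* shRNA samples were lower. *Rims2* fell by 0.31 on the log2 scale (SE 0.12, adjusted p = 0.276 by the quasi-likelihood test of edgeR, Benjamini-Hochberg adjusted). Its call was lost in 8 of the 15 other fits run. It was lost without control 1 (log2 fold change -0.24), without control 2 (-0.37) and without *Ash1L* shRNA 2 (-0.24). Library-size scaling (-0.27) and an offset for exonic length (-0.25) also lost it. So did a block by replicate number, alone (-0.31), with the length offset (-0.26) and with a GC offset (-0.32).

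*Rims1* (ENSMUSG00000041670, chr1:22286251-22805994 on the minus strand), the other RIM gene with the full domain set, was at 306 and 293 CPM in the controls and at 281 and 243 CPM in the *Ash1L* shRNA samples. The groups were separate by a small margin, and it was not called (log2 fold change -0.19, SE 0.12). It was -0.31, and called, without *Ash1L* shRNA 1, and -0.089, not called, without *Ash1L* shRNA 2. The ratio of *Rims1* to *Rims2* was 1.21 and 1.26 in the controls and 1.37 and 1.30 in the *Ash1L* shRNA samples. That was a log2 difference of only 0.11.

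*Rimbp2* (ENSMUSG00000029420, chr5:128757791-128953486 on the minus strand), whose protein links RIM to calcium channels, was not called. It was at 156 and 154 CPM in the controls and at 139 and 184 CPM in the *Ash1L* shRNA samples, one below and one above both controls. The log2 fold change was 0.06 (SE 0.16), and it was -0.15 without *Ash1L* shRNA 2. *Bzrap1*, a RIM-binding protein gene of the same family, was at 280 and 331 CPM against 215 and 231 CPM and fell by 0.46 on the log2 scale (SE 0.13, adjusted p = 0.258 by the quasi-likelihood test of edgeR, Benjamini-Hochberg adjusted).

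*Erc2* (ENSMUSG00000040640, chr14:27622428-28478537 on the plus strand) encodes an ELKS protein, also called CAST, of the active zone. It was at 237 and 302 CPM in the controls and at 223 and 219 CPM in the *Ash1L* shRNA samples. Both *Ash1L* shRNA samples were just below the lower control, and the controls were far apart. The log2 fold change was -0.29 (SE 0.14), and it rested on which control was kept. It was -0.44, and called, without control 1, and -0.11, not called, without control 2. Its relative *Erc1*, which is expressed more widely, was not called (log2 fold change 0.07), and the ratio of *Erc2* to *Erc1* was 2.31 and 3.05 in the controls and 2.23 and 1.95 in the *Ash1L* shRNA samples. That difference was -0.35 on the log2 scale, and -0.15 without control 2.

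The Munc13 genes encode the proteins that prime vesicles. *Unc13a* (ENSMUSG00000034799, chr8:71624417-71671757 on the minus strand) was at 447 and 488 CPM in the controls and at 413 and 472 CPM in the *Ash1L* shRNA samples. *Unc13b* (ENSMUSG00000028456, chr4:43058953-43264871 on the plus strand) was at 105 and 98.3 CPM in the controls and at 101 and 132 CPM in the *Ash1L* shRNA samples. For both genes the groups overlapped, with log2 fold changes of -0.08 (SE 0.13) and 0.20 (SE 0.15). That of *Unc13a* was 0.010 without *Ash1L* shRNA 1, and that of *Unc13b* was -0.0079 without *Ash1L* shRNA 2 and 0.37, which was called higher, without *Ash1L* shRNA 1. The ratio of *Unc13a* to *Unc13b* was 4.24 and 4.96 in the controls and 4.09 and 3.57 in the *Ash1L* shRNA samples. Of the exonic bases of *Unc13a*, 4.8% overlap *Glt25d1* on the opposite strand, which had 884 to 2110 counts per sample.

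The liprin-α genes, whose proteins bind RIM, ELKS and receptor phosphatases, gave 1 call, *Ppfia2*. *Ppfia2* (ENSMUSG00000053825, chr10:106470339-106935952 on the plus strand) was at 198 and 219 CPM in the controls and at 168 and 134 CPM in the *Ash1L* shRNA samples. The groups did not overlap and *Ash1L* shRNA 2 was the lowest. The mean fell by 27.3%, from 208 ± 15.0 to 151 ± 24.2 CPM (SD, n = 2 each), with a log2 fold change of -0.46 (SE 0.15, adjusted p = 0.260 by the quasi-likelihood test of edgeR, Benjamini-Hochberg adjusted). The call was lost without control 2 (log2 fold change -0.39) and kept without *Ash1L* shRNA 2 (-0.30). Of its exonic bases, 27.4% overlap *Acss3* on the opposite strand, which had only 42 to 75 counts per sample against 2781 to 7672 for *Ppfia2*.

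*Ppfia3* (ENSMUSG00000003863, chr7:45339122-45367019 on the minus strand) was at 167 and 168 CPM in the controls and at 155 and 154 CPM in the *Ash1L* shRNA samples. The replicates were nearly alike and the groups separate, with a small distance that was not called (log2 fold change -0.11, SE 0.10). The ratio of *Ppfia2* to *Ppfia3* was 1.18 and 1.30 in the controls and 1.08 and 0.870 in the *Ash1L* shRNA samples, a log2 difference of -0.36. All 5 within-sample ratios were separate between the groups, and each had the smallest exact permutation p the design allows, 0.333. Any ratio with separate groups has that p in this design. The share of other gene pairs with separate ratios was not computed, so the count of 5 has no reference beside it. The genes of the 5 ratios were also chosen with earlier results of these data known. The counting error of the 5 log2 ratios was at most 0.045 (SE).

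**Figure D2:**
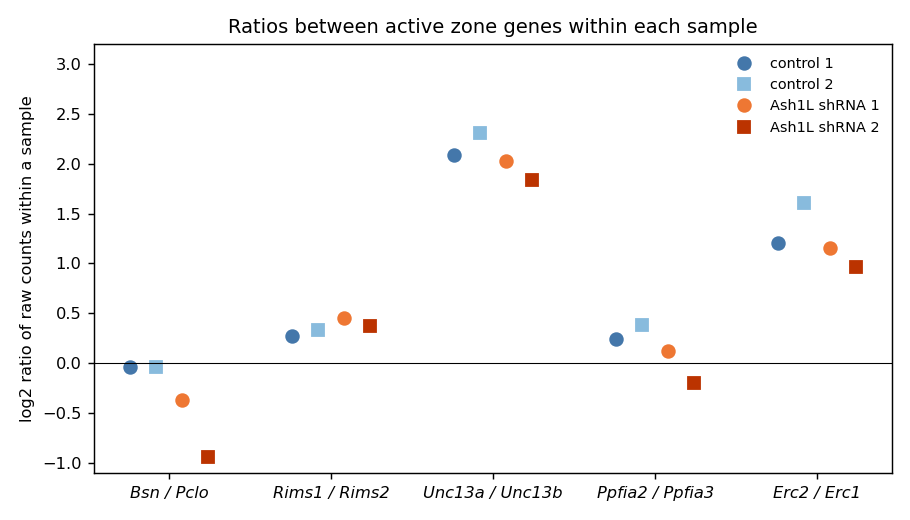
Log2 ratio of raw counts (vertical axis) of related active zone genes within each of the 4 samples, with a horizontal line at equal counts. The *Bsn* to *Pclo* ratio was just under that line in both controls and lower in both *Ash1L* shRNA samples, down to 0.522 as a plain ratio in *Ash1L* shRNA 2.

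Levels of different genes were compared as CPM per kb of exonic length. In the controls the order was *Unc13a* (45.3 ± 2.82, SD, n = 2), *Rims1* (43.6 ± 1.26), *Bsn* (38.7 ± 3.27), *Erc2* (37.3 ± 6.29), *Ppfia3* (35.9 ± 0.12), *Rims2* (31.0 ± 1.77), *Pclo* (28.7 ± 2.33), *Ppfia2* (23.4 ± 1.69), *Rimbp2* (20.1 ± 0.23) and *Unc13b* (5.79 ± 0.28). The control values overlapped between the neighbours *Unc13a* and *Rims1*, *Bsn* and *Erc2*, *Erc2* and *Ppfia3*, and *Rims2* and *Pclo*, and the other neighbours were separate. In the *Ash1L* shRNA samples *Bsn* was at 22.0 ± 4.79 CPM per kb, below *Pclo* at 24.7 ± 1.43 with overlapping samples, whereas *Unc13a* (42.9 ± 4.08) and *Rims1* (38.2 ± 3.93) were still the highest and *Unc13b* (6.64 ± 1.26) the lowest. The order depends on the length used. With the longest transcript in place of all exons *Rims2* moved from rank 6 to rank 1 in the controls, at 50.6 CPM per kb, and *Unc13b* kept rank 10.

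The *Ash1L* shRNA samples were also set one by one against the control mean. *Bsn* was lower by 0.61 log2 in *Ash1L* shRNA 1 and by 1.05 in *Ash1L* shRNA 2, and *Ppfia2* by 0.30 and 0.63. *Pclo* was lower by 0.27 and 0.15, and *Unc13a*, *Unc13b* and *Rimbp2* were at -0.18, -0.01 and -0.15 in *Ash1L* shRNA 1 and at 0.02, 0.38 and 0.25 in *Ash1L* shRNA 2. The median over the 10 genes was -0.21 in one sample and -0.22 in the other, and 6 of the 10 were lower in *Ash1L* shRNA 2 than in *Ash1L* shRNA 1. The 3 called genes of the 10, *Bsn*, *Ppfia2* and *Rims2*, were each lower in *Ash1L* shRNA 2. So were 90.0% of all genes called lower. *Ash1l* was also lower in that sample, and a link was not tested. With that sample left out, all 10 log2 fold changes were negative and 2 genes, *Bsn* and *Ppfia2*, were called, beside 5.05% of all tested genes called lower.

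**Figure D3:**
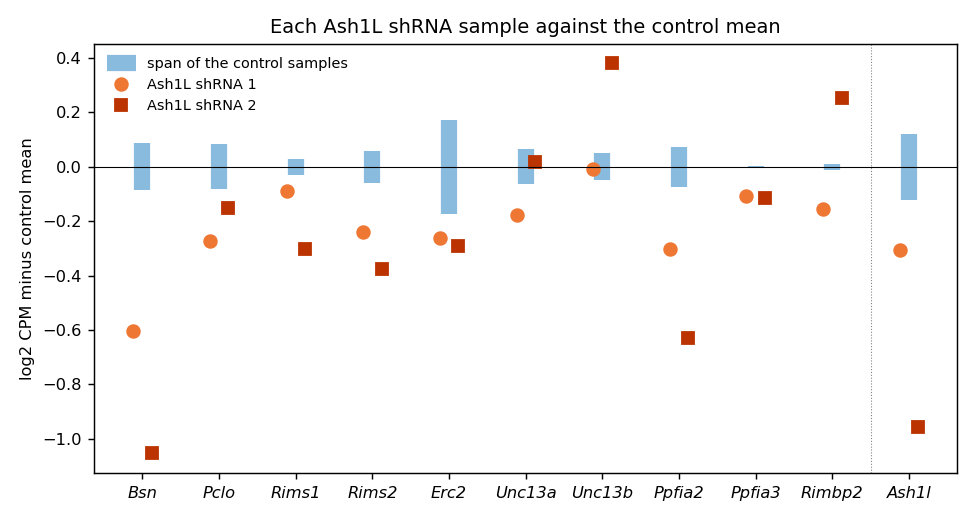
Log2 CPM of each *Ash1L* shRNA sample minus the control mean (vertical axis) for the 10 active zone genes and *Ash1l*, with blue bars for the span of the 2 controls. *Bsn* and *Ppfia2* lay below the control span in both samples and farther in *Ash1L* shRNA 2, while *Unc13b* and *Rimbp2* lay above it in that sample.

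Of 9 paralogs of these genes tested, *Bzrap1* was called lower, beside 8.28% of all tested genes, and 0 were called higher, beside 8.61%. Their median log2 fold change was -0.15, beside -0.0027 over all tested genes. *Rims3* had a log2 fold change of -0.43 (SE 0.30) and *Unc13c* of -0.15, while *Rims4*, *Ppfia1*, *Ppfia4* and *Erc1* were between -0.03 and 0.07. *Rimbp3* and *Unc13d* were at -0.35 each with at most 4.7 CPM in any sample.

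**Figure D4:**
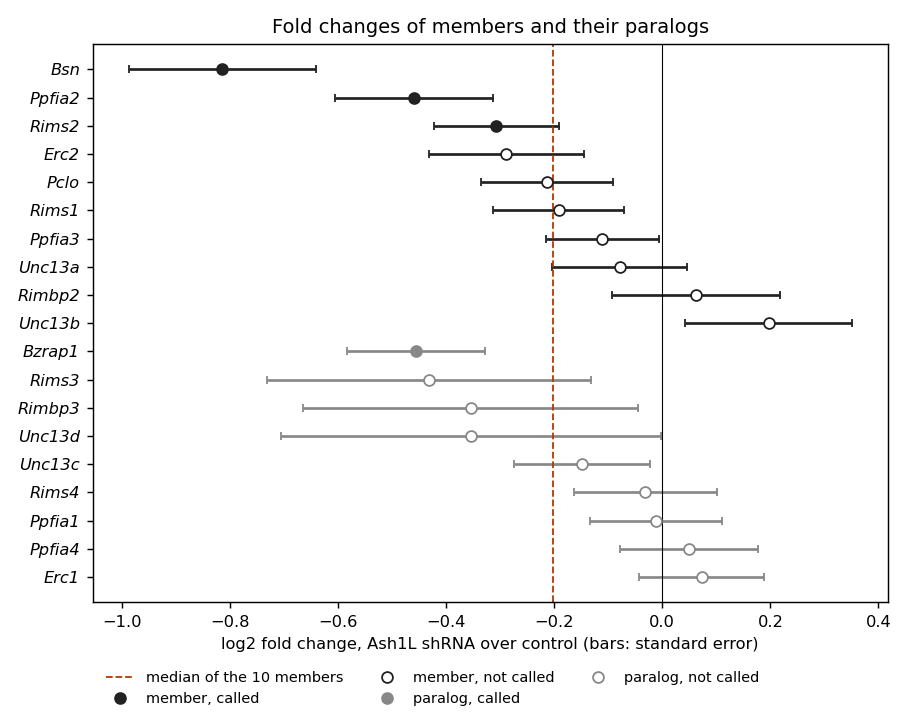
Log2 fold change of *Ash1L* shRNA over control (horizontal axis) with its standard error for the 10 active zone genes (black) and 9 paralogs (grey), filled where called by unadjusted p under 0.05 and at least 1.2-fold. *Bsn* stood lowest at -0.81, and the dashed line marks the median of the 10 genes at -0.20.

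Other genes of the active zone were taken from a list by role, which with the paralogs held 52 genes, all tested. Of these, 8 were called lower and 1 higher, 37 had a negative log2 fold change and the median was -0.09, beside 8.28%, 8.61% and 50.3% of all tested genes and their median of -0.0027. Among 10 presynaptic calcium channel subunits, 3 fell and 9 were negative (median -0.22). They were *Cacnb3* (log2 fold change -0.63, SE 0.23) and *Cacnb1* (-0.29, SE 0.11), which encode auxiliary β subunits, and *Cacna2d1* (-0.57, SE 0.22), which encodes an α2δ subunit. The pore subunit genes *Cacna1a*, *Cacna1b* and *Cacna1e* were not called.

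Among 11 Rab and effector genes, 2 fell and 1 rose (median -0.02). For these genes and the 19 below, 8.28% of all tested genes were called lower and 8.61% higher. *Rph3a*, which encodes the Rab3 effector rabphilin, was at 293 and 271 CPM in the controls and at 202 and 151 CPM in the *Ash1L* shRNA samples (log2 fold change -0.67, SE 0.16). *Rab3a*, the main vesicle Rab that RIM binds, fell by 0.59 on the log2 scale (SE 0.23), and *Rab3c* rose by 0.34 (SE 0.13). Of 19 scaffold and other partner genes, *Lin7b* (-0.72, SE 0.23) and *Cask* (-0.33, SE 0.14), whose proteins form a complex, fell and 0 rose (median -0.04). None of the 3 LAR receptor phosphatase genes, which liprin-α binds, was called (*Ptprd* -0.30, *Ptprs* -0.09, *Ptprf* 0.13). The adjusted p of all 52 was at least 0.253 by the quasi-likelihood test of edgeR, Benjamini-Hochberg adjusted. The counts of calls lower and higher of the 52 were 5 and 0 without control 1, beside 4.14% and 5.07% of all tested genes. They were 1 and 0 without control 2, beside 1.86% and 2.57%, and 14 and 3 without *Ash1L* shRNA 1, beside 16.5% and 14.4%. The higher call was lost without *Ash1L* shRNA 2.

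Markers of the cells in the tissue were read beside these genes, as sums of CPM over each list. The 8 pan-neuronal markers came to 6411 and 6248 in the controls and to 5977 and 5552 in the *Ash1L* shRNA samples, and 0 of 8 were called. Excitatory neuron markers came to 2482 and 2934 against 2273 and 1893 (4 of 8 called lower), and interneuron markers to 792 and 710 against 696 and 674 (3 of 8 called lower). The sums of the pan-neuronal markers and of both neuronal subtypes were lower with *Ash1L* shRNA, without overlap between the groups, as was the sum of the 10 active zone genes. The sums of the astrocyte markers and of the B and plasma cell markers, given below, were lower without overlap as well. Lower sums were therefore not particular to neuronal markers. A sum can hide markers that go the other way. The log2 fold change was negative for 4 of 8 pan-neuronal, 7 of 8 excitatory and 5 of 8 interneuron markers. It was negative for 5 of 8 astrocyte and 5 of 5 B and plasma cell markers, beside 50.3% of all tested genes. The marker calls stand beside 8.28% of all tested genes called lower and 8.61% called higher.

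Astrocyte markers came to 5374 and 5693 against 4338 and 3227 (5 of 8 called lower), and oligodendrocyte markers to 2712 and 3093 against 2898 and 2558 (1 of 8 called lower). Microglia markers came to 830 and 849 against 1100 and 437, and endothelial markers to 266 and 232 against 268 and 226, with 0 called in either list. B and plasma cell markers came to 159 and 152 in the controls and to 25.4 and 1.496 in the *Ash1L* shRNA samples (4 of 5 called lower). Markers of oligodendrocyte precursors (164 and 159 against 192 and 192) and of leptomeningeal fibroblasts (58.4 and 96.8 against 93.0 and 99.6) had 1 of 4 called higher each. No marker was at 0 in all samples, and the part of these cell types in the active zone results was not tested.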

How the data were processed

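RNA-seq counts of 4 mouse PFC samples were analysed, grouped by their labels. The authors deposited raw counts per gene symbol, without normalization. The submitters' processing notes name STAR, featureCounts, DESeq2 and mm10, and the file headers name STAR, whereas the labels describe Cutadapt and TopHat2. The strand and multiple-mapping settings of the counting are not given in the sources used here, so overlapping genes may share reads.

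Genes were filtered with filterByExpr, normalized with TMM and compared between the groups by the robust quasi-likelihood F test of edgeR 4.0.16 (R 4.3.3). P-values were Benjamini-Hochberg adjusted over 16232 genes. DESeq2 1.42.0 was an alternative. Each standard error was the log2 fold change over the square root of F. Within-sample ratios used counts plus 0.5. Exonic lengths came from GENCODE vM21, which matched 98.39% of symbols, and promoter windows from RefSeq (GRCm38.p6).

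The members, partner lists and markers were chosen with earlier results of these data known. All members, their paralogs and up to 3 called partners of each role and direction are named, and other genes only where the text says what they show. Replicates differed by more than counting error (chi-square per degree of freedom 13 and 37). Deviations of same-numbered samples correlated at -0.11, and nothing says they shared a batch or animals, so the numbers were not taken to pair samples.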

Additional observations from a re-analysis of the deposited data

How the results depend on the processing

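Without control 1, control 2, *Ash1L* shRNA 1 or *Ash1L* shRNA 2, from 1 to 4 of the 10 active zone genes were called lower, and from 1 to 14 partner genes lower and 0 to 3 higher, beside 1.86% to 16.5% of all tested genes called lower and 2.57% to 14.4% higher. The log2 difference of the *Bsn* to *Pclo* ratio ran from -0.90 to -0.33. The log2 fold change ran from -0.18 to 0.010 for *Unc13a*, turning positive without *Ash1L* shRNA 1. It ran from -0.0079 to 0.37 for *Unc13b* and from -0.15 to 0.25 for *Rimbp2*, both turning negative without *Ash1L* shRNA 2. With the replicate block, 2 active zone genes were called lower (*Rims2* lost its call), beside 6.28% of all genes, and partner calls were 5 lower and 0 higher. The block with a length offset called 1 active zone gene and 5 partner genes lower, beside 6.02% of all tested genes. *Ppfia2* (log2 fold change -0.41) and *Rims2* lost their calls there. *Ash1l* (-0.56) also lost its call in that fit. The block with a GC offset gave 4 partner genes lower and 0 higher, beside 5.82% and 6.82% of all tested genes. At 1.5-fold 1 active zone gene was called lower, with 4 partner genes lower and 0 higher (share of all tested genes not computed). At an adjusted p of 0.05 in the edgeR test the counts were 0, 0 and 0, and without *Ash1L* shRNA 1 the first was 2, beside 15.2% of all tested genes. A crossed pairing, chosen after seeing the data, called 3 active zone genes lower, beside 10.7% of all tested genes. Of the values of the 10 genes and *Ash1l* under other settings, 144 kept their direction and their status, called or not. Another 15 lost the call, 3 gained it and 3 turned. The 144 include genes that were not called in the main fit and stayed so. Of the genes called there, *Bsn* kept its call in 15 of 15 other fits. *Ppfia2* kept it in 13, *Ash1l* in 10 and *Rims2* in 7. The causes were not tested. With 2 samples per group, a permutation test cannot reach 0.05.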
